A study of Mus musculus with 2 samples.

Results

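The genes described here include the pores and auxiliary subunits of voltage-gated calcium channels, and the channels that release calcium from intracellular stores. Also included are the pumps that refill the stores or clear the cytosol, the proteins of store-operated entry, and the TRP channels. These genes belong to families that carry calcium across membranes or regulate its passage. They were chosen by gene name on a custom Agilent array, as symbols starting with Cacna, Cacnb or Cacng, and Ryr1 to Ryr3, Itpr1 to Itpr3, the Atp2a, Atp2b and Atp2c pumps, Stim1, Stim2, Orai1 to Orai3, the Trpc, Trpm and Trpv channels, Pln and Sln, with Cacna1g and Cacna1h left out. The names took in 66 genes with 100 of the 39429 probes of the array. Of these genes, 52 had a probe above background and were measured, among 21143 genes tested. The RNAs came from ureters of NMRI mice at postnatal day 4. The mutant, Rbpj-cKO, had the genotype Tbx18(cre/+);Rbpj(fx/fx), in which cre expressed from the Tbx18 locus removes Rbpj from cells that express or once expressed Tbx18. The control was Tbx18(+/+);Rbpj(fx/n.d.), which carries no cre, has an intact Tbx18 locus and at least 1 floxed Rbpj allele, with the other allele not determined. Array 1 set a Rbpj-cKO RNA in Alexa647 against a control RNA in Alexa555, both labelled female, and array 2 set a pair labelled male against each other with the dyes exchanged. Sex label, dye orientation and replicate therefore cannot be told apart. How many animals contributed to each RNA is not stated in the sources used here, so the spread between the 2 arrays may be smaller than the spread between animals.

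The ureter moves urine by waves of contraction of its smooth muscle coat. Depolarization opens voltage-gated calcium channels, above all the L-type channel whose pore is encoded by Cacna1c, and the entering calcium binds calmodulin and switches on myosin light chain kinase. The sarcoplasmic reticulum adds calcium through ryanodine and IP3 receptors and takes it back through the SERCA pumps, which phospholamban and sarcolipin hold in check, while STIM and ORAI proteins let calcium in when the store runs low. RBPJ is the nuclear partner of activated Notch receptors and binds DNA at their target genes, and Tbx18 marks the mesenchyme from which the ureteric smooth muscle and fibroblasts arise. The comparison asks which of these calcium genes differed in RNA level between Rbpj-cKO and control ureters.

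Each difference is the log2 of the Rbpj-cKO signal divided by the control signal of the same array, so that a lower Rbpj-cKO level gives a value below 0, and its SD is that between the 2 arrays. Levels are normalized log2 intensities of a channel, which serve to compare RNAs for 1 probe and not genes with each other. The targeted gene Rbpj had ratios of -0.92 and -1.10 (mean -1.01 ± 0.13, SD, n = 2; limma adjusted p = 0.0873). The position of its probe relative to the floxed exons was not examined, so these ratios do not settle the labels. On array 1 the Y-linked genes Ddx3y and Eif2s3y had ratios of 4.23 and 4.26 although both RNAs were labelled female, so the Rbpj-cKO RNA of that array went against its sex label. Their ratios on array 2 were -0.54 and -0.19. Genotype and the amount of Y-linked RNA thus changed together on array 1, and their parts in its ratios cannot be told apart. These ratios enter every mean, interval and p given for both arrays. Array 2 alone is given for the direction count and the 1.5-fold count over the measured calcium genes, and main ratios are given per array. The other counts rest on both arrays. Smooth muscle markers were detected in every RNA, with a mean log2 level between 15.5 and 15.9 over 8 markers. The share of gene spots well above background was 71.8% to 74.0% per channel, and the 4 spots of a probe had a median SD of 0.05 and 0.06 on the log2 scale.

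Most calcium genes stood close to equal levels in the RNAs compared. The mean log2 ratio was under 0.2 in size for 40 of the 52 measured genes (76.9%, against 80.6% of all genes tested), and its median over the 52 was -0.02, against 0.00 over all genes. None passed an adjusted p of 0.05 in limma's moderated test with Benjamini-Hochberg adjustment over all genes. The background for this call was 0.00473%, a single gene of the 21143. The smallest adjusted p among the calcium genes was 0.132, for Atp2a3, and 0 genes were called as well when limma was run with trend and robust settings or on the 4 channels as separate RNAs. At an unadjusted p under 0.05 stood 8 calcium genes that were lower (15.4%, against a background of 7.02%) and 2 that were higher (3.85%, against 6.98%). The 8 were Atp2a3, Atp2a2, Atp2a1, Pln, Itpr2, Cacna1a, Cacnb4 and Cacng5, and the 2 were Atp2b1 and Trpc4. Cacng5 and Cacna2d4 had a kept probe through the control RNAs and Trpm8 through the Rbpj-cKO RNAs. With probes required to be above background in both genotypes, which left out these 3 genes, 7 of 49 were lower at that p (14.3%, against 7.05% of 20616 genes) and 2 higher.

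By direction alone, 21 of the 52 genes were lower on both arrays (40.4%, background 29.8%) and 9 were higher on both (17.3%, background 31.7%). The other 22 pointed in opposite directions (42.3%, background 38.5%). On array 2 alone 34 genes were lower and 18 higher, and on array 1 alone 30 and 22. In the authors' deposited table of processed values the split was 13 lower and 14 higher, and that table lists 6 of the genes at exactly 1, no change, on at least 1 array. The shares of all genes by direction on a single array or in that table are not given here. The median of the 52 was -0.02 on array 1 and -0.04 on array 2, against -0.01 and 0.01 over all genes. A ratio of at least 1.5-fold on both arrays was reached by 1 gene in the lower direction, Atp2a3 (1.92%, background 0.795%), and by 0 in the higher direction (background 0.402%). For 48 of the 52 genes the 95% interval of the mean ratio lay within 1.5-fold in either direction (92.3%, background 90.0%). The exceptions were Itpr2, Atp2a3, Pln and Atp2b4. Across the 52 genes the ratios of the 2 arrays had a Pearson correlation of 0.58, as a description of genes that share the same RNAs.

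**Figure D1:**
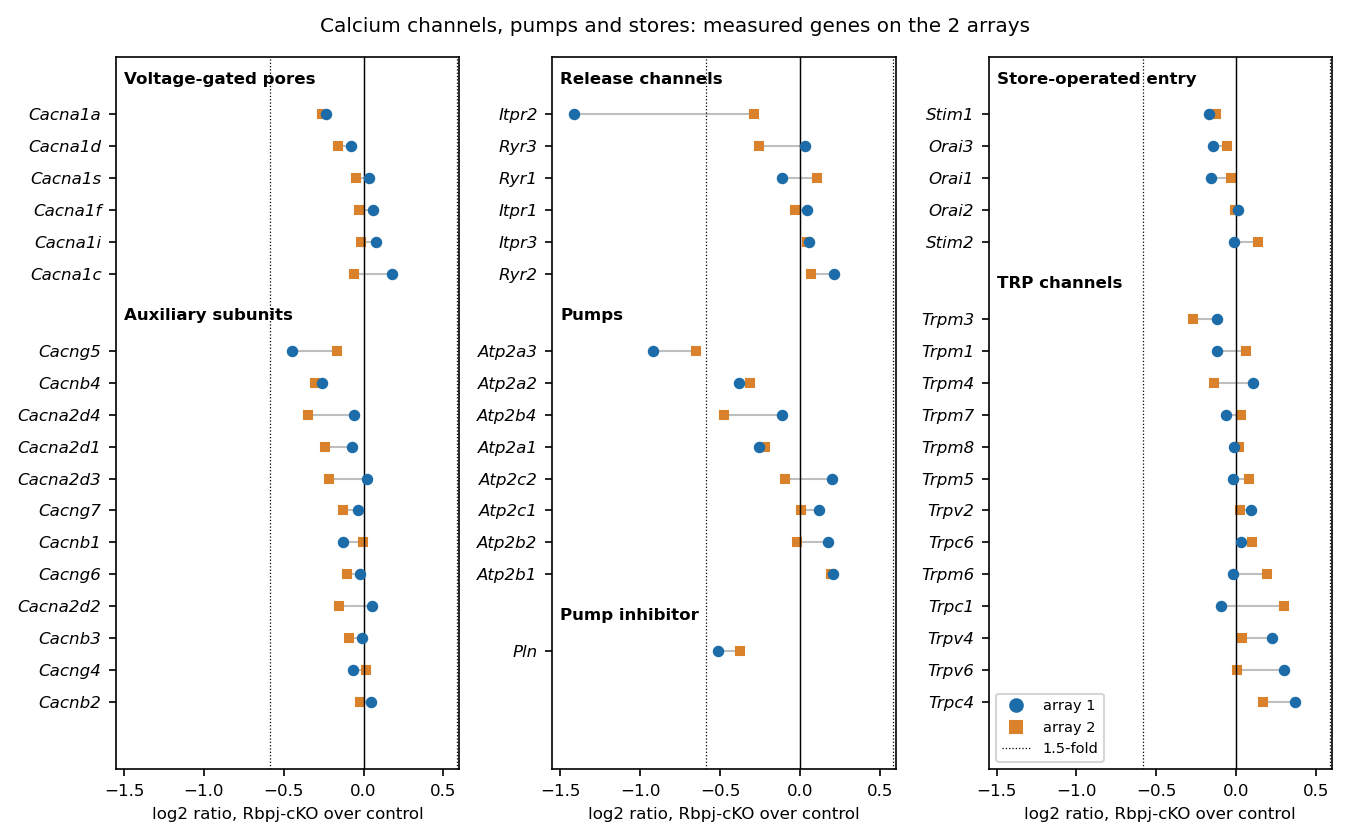
Log2 ratio of Rbpj-cKO over control (x axis) for the measured calcium genes, all but 1 of the 52, grouped by role, with array 1 as blue circles and array 2 as orange squares joined by a line; dotted lines mark 1.5-fold. Most genes lie near 0, and Atp2a3 alone lies beyond 1.5-fold on the lower side on both arrays.

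The pumps of the store gave the clearest difference. Atp2a3 encodes SERCA3, a store pump best known from endothelial, epithelial and blood cells. Its level was 12.12 in the control and 11.20 in the Rbpj-cKO RNA of array 1, and 12.17 and 11.52 on array 2. On each array the Rbpj-cKO value was the lower. The ratios of -0.92 and -0.65 gave a mean of -0.78 ± 0.19 (SD, n = 2), a 1.72-fold lower level that did not pass the test (limma adjusted p = 0.132, 95% interval -1.04 to -0.52). Its probe sits at chr11:72806289-72806348 (mm9), and the mean ratio kept between -0.81 and -0.76 under each alternative processing with both arrays. Endothelial markers were also lower, with medians over 6 genes of -0.33 on array 1 and -0.09 on array 2 and 4 of the 6 lower on both; among them Cldn5, a tight junction gene, had the largest mean ratio, -0.53. Of all genes, 29.8% were lower on both arrays, 31.7% higher on both and 38.5% opposite. Urothelial markers were higher on both arrays in 5 of 8 and lower in 0 (medians 0.45 and 0.08). Of 6 leukocyte markers 0 kept a direction (medians -0.17 and 0.06). The part of these cells in the Atp2a3 result was not tested. In whole-tissue RNA, fewer cells of a type and less RNA per cell cannot be told apart.

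The other store pumps differed less. Atp2a2 encodes SERCA2, the main store pump of smooth and heart muscle, and its level was 14.93 in the control and 14.55 in the Rbpj-cKO RNA of array 1, and 15.14 and 14.83 on array 2. The Rbpj-cKO RNA was the lower of each pair by a similar step, with a mean of -0.35 ± 0.05 (SD, n = 2; limma adjusted p = 0.215), and a dimmer second probe gave -0.22. Atp2a1, the SERCA1 pump of fast skeletal muscle, had ratios of -0.26 and -0.22 (mean -0.24 ± 0.03, SD, n = 2; limma adjusted p = 0.302). The 3 genes of this family were thus lower on both arrays, at sizes of which only that of Atp2a3 passed 1.5-fold.

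Phospholamban, encoded by Pln, inhibits the store pump until it is phosphorylated. Its level was 7.58 in the control and 7.07 in the Rbpj-cKO RNA of array 1, and 7.57 and 7.20 on array 2. The Rbpj-cKO RNA was thus the lower of each pair. The mean ratio was -0.44 ± 0.10 (SD, n = 2; limma adjusted p = 0.180), and it grew to -0.83 with the scanner's own log ratio and to -0.88 in the authors' deposited table. Sln, which encodes the related inhibitor sarcolipin of fast and atrial muscle, was well above background only in the control RNA of array 1. Its ratios were -0.76 on that array and 0.06 on array 2, and they are not counted among the measured genes.

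The pumps of the plasma membrane and the Golgi showed no shared direction. Atp2b1 encodes PMCA1, a housekeeping pump that exports calcium, and its level was 13.57 in the control and 13.78 in the Rbpj-cKO RNA of array 1, and 13.58 and 13.77 on array 2. Both Rbpj-cKO RNAs were higher by nearly the same amount, 0.20 ± 0.01 (SD, n = 2; limma adjusted p = 0.346). The second probe of the gene stood at -0.01, and the mean over both probes was 0.09, so the difference rests on 1 probe. Atp2b4, the PMCA4 pump prominent in smooth muscle, had ratios of -0.11 and -0.47, and its 3 probes gave means from -0.29 to -0.08. Atp2b2, and the secretory pathway pumps Atp2c1 and Atp2c2, had mean ratios between 0.05 and 0.08. Atp2b3, a mostly neural pump, was not well above background.

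**Figure D2:**
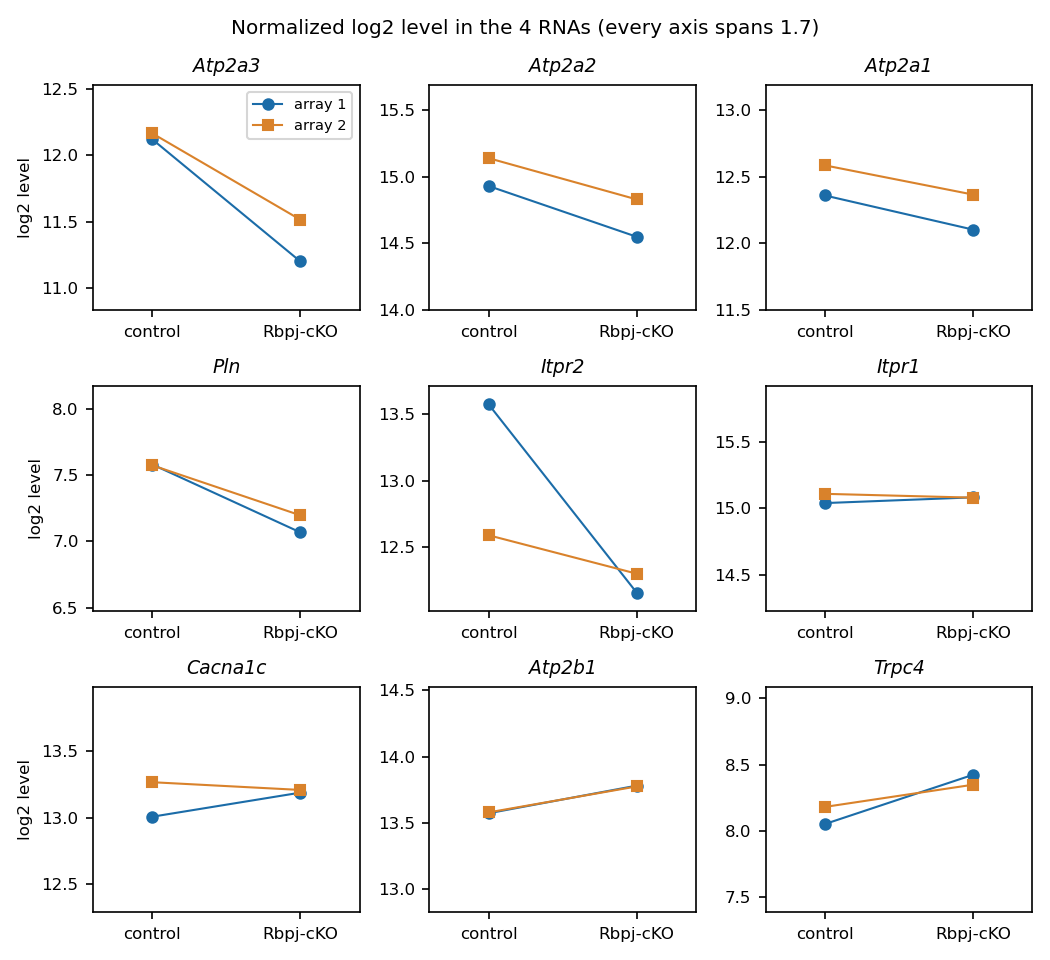
Normalized log2 level (y axis, each spanning 1.7) in the control and the Rbpj-cKO RNA of each array for 9 calcium genes, with array 1 in blue and array 2 in orange; lines join the RNAs of an array. Atp2a3, Atp2a2, Atp2a1, Pln and Itpr2 lie lower in both Rbpj-cKO RNAs, Atp2b1 and Trpc4 higher, and Itpr1 close to equal.

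Among the release channels the IP3 receptor type 2 differed mainly on array 1. Itpr2 had a level of 13.57 in the control and 12.16 in the Rbpj-cKO RNA of array 1, and 12.59 and 12.30 on array 2. The control of array 1 was the high sample, and the other 3 RNAs lay between 12.16 and 12.59. The ratios of -1.42 and -0.29 gave a mean of -0.85 ± 0.80 (SD, n = 2; limma adjusted p = 0.322), the lowest mean of the calcium genes and the most uneven. Adipocyte markers were also further from 0 on array 1, with medians over 8 genes of -2.90 on array 1 and -1.37 on array 2. All 8 were lower on both arrays, beside 29.8% of all genes. The mean log2 level of these 8 markers was 15.3 in the control of array 1 and 13.5 in that of array 2. In the Rbpj-cKO RNAs it was 12.2 and 11.9. The part of adipose cells in the Itpr2 difference was not tested.

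The other release channels differed little. Itpr1, the receptor type of most smooth muscle, had ratios of 0.04 and -0.03, and its 95% interval of -0.19 to 0.21 leaves out a change of 1.5-fold. Itpr3 stood at 0.05 ± 0.01 (SD, n = 2). The ryanodine receptors, which open on calcium itself, gave a mean of 0.00 for Ryr1 of skeletal muscle, of 0.14 for Ryr2 of heart and other muscle and of -0.11 for Ryr3, whose arrays differed (0.03 and -0.25).

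The voltage-gated pores were mostly near equal. Cacna1c, the pore of the L-type channel that carries most calcium entry in smooth muscle, had a level of 13.01 in the control and 13.19 in the Rbpj-cKO RNA of array 1, and 13.27 and 13.21 on array 2. The pairs pointed in opposite directions, and the mean of 0.06 ± 0.17 (SD, n = 2; 95% interval -0.19 to 0.31) is near 0, as was a second, dimmer probe at -0.03. Cacna1a, the P/Q-type pore best known from neurons, had ratios of -0.23 and -0.26 (mean -0.25 ± 0.02, SD, n = 2; limma adjusted p = 0.293), with a second probe at -0.18. Neuron markers had medians over 9 genes of 0.11 and 0.06. On both arrays 5 were higher and 3 lower, beside 31.7% and 29.8% of all genes. Uchl1 had the mean ratio largest in size among the neuron markers, -0.70. The part of neurons in the Cacna1a value was not tested. Cacna1d, the other L-type pore of pacemaking cells, stood at -0.12, and Cacna1s, Cacna1f and Cacna1i between -0.01 and 0.03. Of the 8 listed pores, Cacna1b and Cacna1e were not well above background.

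The auxiliary subunits were grouped by gene name, and whether each Cacng product acts on calcium channels was not examined. They were lower on both arrays in 8 of 12 measured genes and higher on both in 0, with a median mean ratio of -0.07. Of all genes, 29.8% were lower on both and 31.7% higher. With probes above background in both genotypes, which leaves out Cacng5 and Cacna2d4, 6 of 10 were lower on both. Some of these ratios were close to 0, such as -0.003 for Cacnb1 on array 2 and -0.01 for Cacnb3 on array 1. In the authors' deposited table only Cacnb1 and Cacnb4 of the auxiliary subunits were lower on both arrays. Cacna2d1, Cacnb3 and Cacng7 had opposite directions in that table, and Cacna2d4, Cacng5 and Cacng6 were at no change on an array or both. Cacnb4, a beta subunit known from brain, had ratios of -0.26 and -0.31 (mean -0.28 ± 0.03, SD, n = 2; limma adjusted p = 0.262), and the mean was -0.47 with the scanner's own log ratio and -0.43 in the authors' deposited table. Cacng5 had ratios of -0.45 and -0.16, but in the Rbpj-cKO RNAs it was well above background on array 2 alone, and the scanner's log ratio gave -0.94 against -0.09 in the authors' deposited table. Cacna2d1, the alpha-2-delta subunit common in muscle, stood at -0.16 with one probe and -0.34 with the other. Cacna2d4 was not well above background in the Rbpj-cKO RNAs, and its ratios were -0.06 and -0.35 (95% interval of the mean -0.47 to 0.06). Cacnb2 and Cacnb3, beta subunits of muscle and other tissues, had means of 0.01 and -0.05. Cacna2d2, Cacna2d3, Cacnb1, Cacng4, Cacng6 and Cacng7 lay between -0.10 and -0.03, and Cacng1, Cacng2, Cacng3 and Cacng8 were not well above background.

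**Figure D3:**
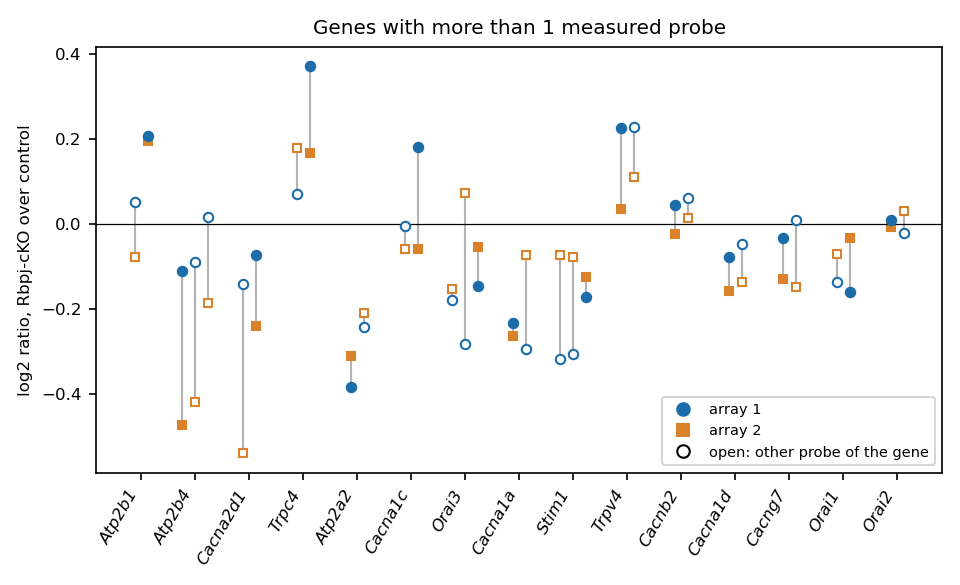
Log2 ratio of Rbpj-cKO over control (y axis) for the 15 calcium genes with more than 1 measured probe, each probe with its array 1 value (blue circle) and array 2 value (orange square); filled symbols mark the probe that stands for the gene. The probes of Atp2b1, Atp2b4 and Cacna2d1 are the most apart, by 0.21, 0.21 and 0.18 between their means.

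Store-operated entry was near equal. The calcium sensor Stim1, which reports an empty store, had ratios of -0.17 and -0.13 with its brightest probe, and its 3 probes gave means between -0.19 and -0.15. The pore subunits Orai1, Orai2 and Orai3 stood at -0.10, 0.00 and -0.10, and Stim2 at 0.06. All 5 genes of this group were measured, 3 were lower on both arrays and 0 were higher on both, beside 29.8% and 31.7% of all genes.

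Many TRP channels pass calcium, in response to receptors, stretch, temperature or store state. Of 14 measured, 5 were higher on both arrays, 2 lower on both and 7 opposite. Of all genes, 31.7% were higher on both, 29.8% lower on both and 38.5% opposite. Trpc4, a receptor-operated channel of smooth muscle, had a level of 8.05 in the control and 8.42 in the Rbpj-cKO RNA of array 1, and 8.18 and 8.35 on array 2. Both Rbpj-cKO RNAs were the higher, at a mean of 0.27 ± 0.14 (SD, n = 2; limma adjusted p = 0.318), and the second probe gave 0.12. Trpc6, a channel of the same family, stood at 0.06. Trpv4, a channel of the urothelium and other epithelia that responds to stretch, had ratios of 0.23 and 0.04, and Trpv6, an epithelial calcium uptake channel, 0.30 and 0.00. Urothelial markers were also higher on array 1, with medians over 8 genes of 0.45 on array 1 and 0.08 on array 2. Upk3b, a urothelial marker here, is also on the mesothelium list and counts in both. Kidney epithelium markers were higher on both arrays in 5 of 6 (medians 1.06 and 0.42), and mesothelium markers in 4 of 5 (medians 0.99 and 0.14). The part of these cells in the Trpv4 and Trpv6 values was not tested. Trpc1 went in opposite directions, -0.10 and 0.30. The remaining TRP genes reported here lay between -0.20 (Trpm3) and 0.09 (Trpm6). Trpm8 was not well above background in the control RNAs, and Trpc5, Trpc7, Trpm2, Trpv1, Trpv3 and Trpv5 could not be measured.

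**Figure D4:**
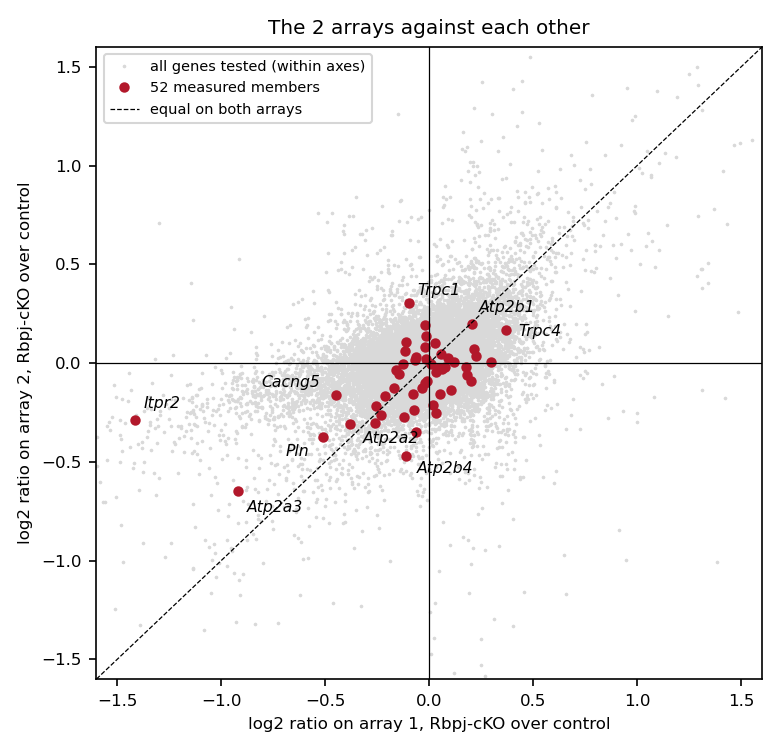
Log2 ratio of Rbpj-cKO over control on array 1 (x axis) against array 2 (y axis) for the 52 measured calcium genes (red) and, in grey, all tested genes that fall inside the axes; the dashed line marks equal values. Atp2a3 lies near the diagonal in the lower left, and Itpr2 far to the left of it.

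The other genes of calcium handling were counted from a list of 74, of which 70 were tested. On both arrays 30 were lower and 16 higher, beside 29.8% and 31.7% of all genes, and the median was -0.04. In limma 0 passed the adjusted p, and 15 were lower and 0 higher at an unadjusted p under 0.05, beside 7.02% and 6.98% of all genes. The largest means belonged to store proteins and a channel regulator. Casq2 and Casq1, the calcium-binding calsequestrins that hold calcium in the store, had ratios of -0.54 and -0.69, and -0.48 and -0.63 (means -0.61 ± 0.10 and -0.55 ± 0.11, SD, n = 2; limma adjusted p = 0.133 and 0.146). Trdn, triadin, anchors calsequestrin to the ryanodine receptor, and its ratios were -1.30 and -0.27, a mean of -0.78 ± 0.73 (SD, n = 2; limma adjusted p = 0.323). Rrad, a small GTPase that holds back L-type channels, had ratios of -0.58 and -0.73 (mean -0.66 ± 0.11, SD, n = 2; limma adjusted p = 0.132). Among 15 store proteins, 9 had a ratio below 0 on both arrays and 2 above 0, and of 5 sodium-calcium exchangers 4 were lower and 1 higher, while of 6 mitochondrial uptake genes 0 were lower and 3 higher. Calmodulin and its targets had 10 lower and 4 higher of 21, the genes that signal to the IP3 receptor 1 lower and 3 higher of 8, and the endolysosomal and polycystin channels 2 lower and 1 higher of 6. The RGK family of channel regulators had 2 lower and 1 higher of 4, the regulators of store-operated entry 2 lower and 0 higher of 4, and the only small regulator of the store pump that was tested was higher.

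Markers of muscle were more often lower than higher on both arrays, where 29.8% of all genes were lower on both and 31.7% higher. Skeletal muscle markers were lower on both arrays in 6 of 9 measured of 12 and higher in 1 (medians -0.23 and -0.38), led by Myh8, Tnnc2 and Ckm with means of -1.38, -0.86 and -0.80, and their mean log2 level was 10.6 in both controls against 10.2 in both Rbpj-cKO RNAs. Smooth muscle markers were lower on both in 5 of 8, higher on both in 0 and opposite in the others (medians -0.09 and -0.35), with Des at -0.74 the lowest. Of 5 heart muscle markers tested, 3 were lower on both and 1 higher (medians -0.13 and -0.13), with Myh6 at -1.86, Myl7 at 0.63 and Myl4 at -0.40, and 5 of 6 pericyte markers were lower on both, with medians of -0.40 and -0.33. Myh1, Myh2 and Myh3, defining skeletal muscle markers, were not tested because they were not well above background. The part of skeletal or heart muscle cells in the values of Atp2a1, Atp2a2, Pln, Casq1 and Casq2, all expressed in these muscles, was not tested.

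**Figure D5:**
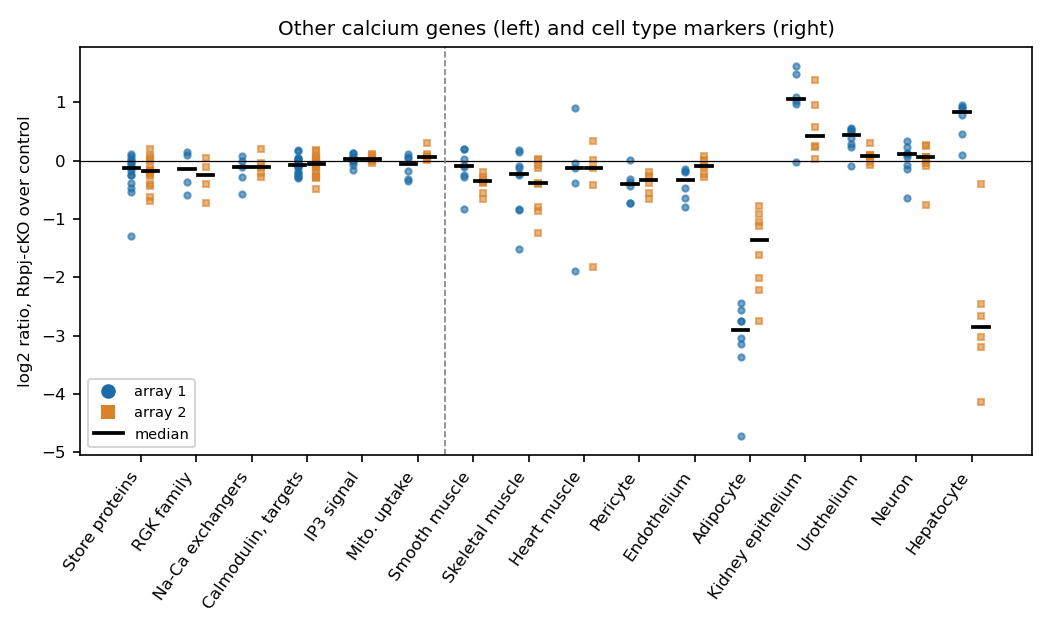
Log2 ratio of Rbpj-cKO over control (y axis) of each gene of other calcium-handling groups (left of the dashed line) and of cell type markers (right), with array 1 in blue, array 2 in orange and the median of each as a black bar. Adipocyte markers lie below 0 on both arrays, at medians of -2.90 and -1.37, and hepatocyte markers point in opposite directions, at 0.84 and -2.84.

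Promoters are shown for the 3 calcium genes with the lowest mean ratio and an entry, and for those in which a binding motif was found. They are RefSeq sequences of mouse assembly GRCm38.p6, here the 250 bases before the annotated start, 5′ to 3′, and 43 of the 52 measured genes had such an entry. The motif of RBPJ searched was GTGGGAA on both strands, and the CArG box bound by serum response factor was searched by its pattern; both searches covered 250 bases before and 50 after the start. Capitals mark a match.

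Atp2a3 (chr11:72960919-72961168, plus strand): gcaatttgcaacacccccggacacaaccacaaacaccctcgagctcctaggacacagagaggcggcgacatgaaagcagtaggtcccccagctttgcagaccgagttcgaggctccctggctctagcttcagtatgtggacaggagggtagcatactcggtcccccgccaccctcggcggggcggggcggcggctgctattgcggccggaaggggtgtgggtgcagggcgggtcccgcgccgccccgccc

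Itpr2 (chr6:146502224-146502473, minus strand): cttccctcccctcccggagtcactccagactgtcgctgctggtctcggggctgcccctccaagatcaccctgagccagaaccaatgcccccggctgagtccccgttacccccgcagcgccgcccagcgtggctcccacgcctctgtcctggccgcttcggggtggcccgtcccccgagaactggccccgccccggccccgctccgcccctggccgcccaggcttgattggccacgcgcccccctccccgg

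Pln (chr10:53337436-53337685, plus strand): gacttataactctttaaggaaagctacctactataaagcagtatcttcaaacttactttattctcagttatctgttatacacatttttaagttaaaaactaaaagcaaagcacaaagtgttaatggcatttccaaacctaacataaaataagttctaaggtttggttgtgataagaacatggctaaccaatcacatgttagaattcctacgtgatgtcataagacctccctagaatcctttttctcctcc

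Atp2b2 (chr6:113934682-113934931, minus strand): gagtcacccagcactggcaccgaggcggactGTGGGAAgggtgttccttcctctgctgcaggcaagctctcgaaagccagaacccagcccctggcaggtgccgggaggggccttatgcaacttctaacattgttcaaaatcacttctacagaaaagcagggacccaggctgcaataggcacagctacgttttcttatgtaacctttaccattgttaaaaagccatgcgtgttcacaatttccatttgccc

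Cacnb3 (chr15:98632078-98632327, plus strand): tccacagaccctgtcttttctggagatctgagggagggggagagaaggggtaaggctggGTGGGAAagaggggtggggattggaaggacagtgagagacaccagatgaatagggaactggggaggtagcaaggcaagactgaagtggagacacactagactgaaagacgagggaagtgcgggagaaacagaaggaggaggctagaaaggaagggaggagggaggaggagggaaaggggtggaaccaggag

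Trpc6 (chr9:8543892-8544141, plus strand): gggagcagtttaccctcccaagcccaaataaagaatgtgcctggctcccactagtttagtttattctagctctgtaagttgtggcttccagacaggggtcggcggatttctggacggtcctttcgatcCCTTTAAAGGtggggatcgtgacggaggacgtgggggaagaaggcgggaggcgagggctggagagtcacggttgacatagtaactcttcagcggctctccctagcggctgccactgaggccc

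The promoters of Atp2a3, Itpr2 and Pln held neither motif. GTGGGAA was present in 2 of the 60 promoters of the measured calcium genes (3.33%), those of Cacnb3 and of Atp2b2, against 6.38% of 32851 promoters in the table. A CArG box was present in 1 of the 60 (1.67%), that of Trpc6, against 1.63%. The mean ratios of Cacnb3, Atp2b2 and Trpc6 were -0.05, 0.08 and 0.06. A match is a description of letters in this window and says nothing of binding, and the absence of a match says nothing of the factor.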

How the data were processed

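Per the labels, total RNA was amplified into amino allyl cRNA and hybridised in pairs to 2 arrays on a slide. The scanner files hold an intensity per spot and channel, deposited as extracted with Agilent Feature Extraction 10.7.3.1 (per the submitters' processing notes), beside a log10 ratio of red over green, per the file headers. The authors' deposited series table is a score, read here as signed fold changes (31.8% and 31.6% of values exactly 1; correlation with the scanner ratio 0.777 and 0.686); how it was scaled and centred is unknown here, and it was used only as 1 of the alternatives.

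Background was corrected by normexp (offset 50), followed by loess within arrays with limma 3.58.1 in R 4.3.3. Outlier spots were dropped (3.34% and 3.12%), and 0 spots were saturated. The 4 spots of a probe were averaged, probes with over 50% of spots well above background on both arrays in at least 1 genotype were kept (28176 of 39429, 70 of the 100 calcium probes), and the brightest probe stood for its gene. Ratios were tested against 0 (lmFit and eBayes, two-sided, 4.35 degrees of freedom, Benjamini-Hochberg over 21143 genes). Probe coordinates are mm9. Every calcium gene of the name rule could be named; of the other calcium list up to 4, and per marker list up to 3, with the largest mean ratio. The members, lists and rules were chosen with earlier results of these data known. Alternatives changed the background correction, the normalization, the source of the ratio, the filter on dim probes, the probe that stands for a gene, the variance model and the arrays used. The values of 1 calcium gene are not reported here, although it is in the counts. The code was tested on simulated data.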

Additional observations from a re-analysis of the deposited data

How the results depend on the processing

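Every alternative with both arrays left 0 calcium genes past the adjusted threshold, and the smallest adjusted p of Atp2a3 in limma over them was 0.0586, with trend and robust settings, where 95 of all genes were called. The count of genes at least 1.5-fold lower on both arrays was 2 with the scanner's log ratio and 2 in the authors' deposited table. In both cases Pln joined Atp2a3, and the counts over all genes were 265 and 209. With an array left out the count was 1 on array 2 and 2 on array 1, where Itpr2 joined. Over all 21143 genes these counts were 292 and 783. Genes higher on both arrays numbered 14 in the authors' deposited table and 18 to 22 on a single array, genes lower on both 13 in that table and 30 to 34 on a single array, and the median ratio was 0 in that table and -0.0398 to -0.0201 on a single array; a single array by construction has no second sign to match. Of the 52 genes, 39 kept the sign of their mean under every alternative with both arrays, 10 took the opposite sign under at least 1, and 3 were only brought to exactly 0, in the authors' deposited table. The fit of the 4 channels with no replicate block changed no call among the calcium genes. Over all genes it called 0, against 1 in the main fit. The main ratio within an array already pairs the RNAs. The 2 arrays limit precision, and levels near background limit Pln, Cacng5 and Cacna2d4.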
